A study of Saccharomyces cerevisiae with 6 samples.

Results

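The heat response described here is that of a mock precipitate, the RNA left on the beads when yeast lysates without a tagged protein went through the whole precipitation. It was read as the difference between the array of the no tag sample at 42 °C and the array of the no tag sample at 25 °C. These are 2 of the 6 arrays of a Saccharomyces cerevisiae study of the RNA bound to the export receptor Mex67 and to Npl3, an SR-like RNA-binding protein. All 5667 S. cerevisiae loci of the table were members, out of 10928 probe sets in all. The 4999 probe sets for the fission yeast Schizosaccharomyces pombe served as background, because the labels name no RNA of that species in the samples.

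The no tag 42 °C sample came from cells kept at 42 °C for 30 min, and the no tag 25 °C sample from cells kept at 25 °C for 30 min. Both carry the strain entry HKY36/HKY381, and the labels do not say whether these strains were pooled or what their genotypes are. Cells of all groups were grown at 25 °C in YPD, a rich glucose medium, to log phase, split, and incubated in a petri dish. After UV crosslinking, lysates of all groups were put on beads with a c-myc antibody and on GFP-Trap beads. The other groups were Mex67 at 42 °C and 25 °C (strain HKY1266) and Npl3 at 42 °C and 25 °C (strain HKY157). The 25 °C title of the no tag pair names an IP and the 42 °C title does not, although the protocol is the same. No array of total RNA was analysed here, so a level is that of RNA recovered from the beads. Each group has 1 array. No difference below has a replicate check, no p-value was computed, and the number of arrays limits the precision.

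Yeast cells moved to a high temperature switch on genes for chaperones, the proteins that hold, refold or pull apart damaged proteins. Heat shock factor Hsf1 drives most chaperone genes, while the paralogous activators Msn2 and Msn4 drive a broad stress programme with trehalose, glycogen and antioxidant genes. The genes for ribosomal proteins and for ribosome assembly are turned down in the same response.

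Levels are the authors' log2 values. A difference is the 42 °C level minus the 25 °C level, so that a difference of 1 is a 2-fold change. Counted loci had a difference of 2-fold or more and a level above the floor, the 95th percentile of the S. pombe probe sets, which was 5.0 at 42 °C and 5.1 at 25 °C, on either array. The arrays had been brought to a common scale, with a median over loci of 11.14 at 42 °C and 11.14 at 25 °C, so every difference is relative to the other RNAs of the array. At 42 °C 99.6% of the loci lay above the floor, and at 25 °C 99.2% did. No label explains the column letters S and US, which were read as stressed and unstressed, so the direction of the chaperones is not independent of that reading.

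The no tag arrays also stood apart from the tagged strains in mating type genes such as MF(ALPHA)1, and this bears on each mating gene below. MF(ALPHA)1, which encodes the alpha-factor pheromone, had log2 levels of 13.35 at 42 °C and 13.93 at 25 °C in the no tag precipitate. In the Mex67 precipitate the same probe set read 6.67 at 42 °C and 6.10 at 25 °C, and in the Npl3 precipitate 7.08 at 42 °C and 7.53 at 25 °C. STE2, the alpha-factor receptor of a cells, ran the other way, with 9.12 at 42 °C and 8.48 at 25 °C without a tag, against 11.90 at 42 °C and 13.84 at 25 °C with Mex67. On these probe sets the no tag samples thus read higher for alpha-factor and lower for its receptor than the Mex67 samples did. MET17, the O-acetylhomoserine sulfhydrylase that is often deleted in laboratory strains, had 13.26 at 42 °C and 11.85 at 25 °C without a tag, against 5.62 at 42 °C and 6.49 at 25 °C with Mex67. With Npl3 it had 8.66 at 42 °C and 11.47 at 25 °C, so at 25 °C the no tag and Npl3 samples were close for this gene. Differences between the no tag pair and the tagged pairs are therefore also differences between strains, and the 2 cannot be told apart.

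Of 5647 loci above the floor, 378 were at least 2-fold higher at 42 °C, which is 6.69% of those tested, and 117 were at least 2-fold lower, which is 2.07%. The median difference was 0.00, and the central 95% of differences lay between -0.94 and 1.54. The tail was longer on the upper side. At least 4-fold differences numbered 76 higher and 5 lower, and at least 8-fold differences 19 higher and 1 lower. Among the S. pombe probe sets, 0 of 4999 differed 2-fold, and their differences had a median of -0.06 and an SD of 0.236. These probe sets are dim and show the noise of the background, not that between independent precipitations.

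**Figure D1:**
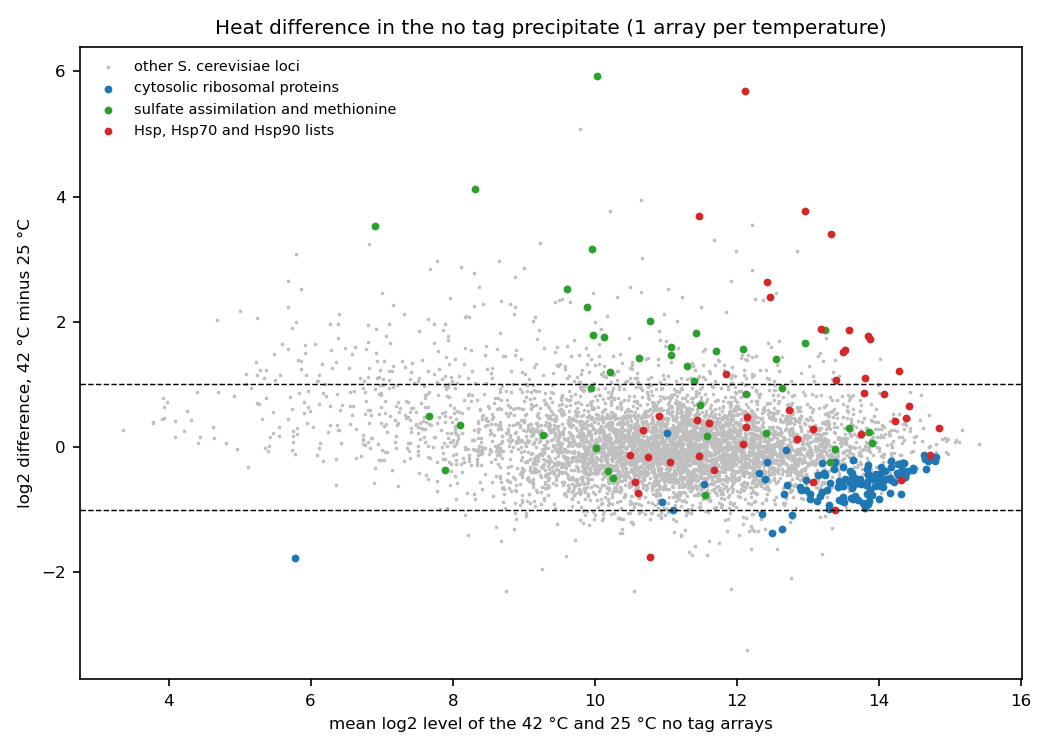
Log2 difference between the 42 °C and 25 °C no tag arrays (vertical axis) against the mean log2 level of both arrays (horizontal axis), 1 point per S. cerevisiae locus, with dashed lines at a 2-fold difference. The chaperone lists (red) and the sulfate and methionine list (green) reach far above the upper line, while 128 of 129 cytosolic ribosomal protein genes (blue) lie below 0.

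Genes of sulfur and arginine metabolism stood among the chaperones at the upper end. STR3, a cystathionine beta-lyase of methionine synthesis, had a log2 level of 13.00 at 42 °C against 7.07 at 25 °C, a difference of 5.93. HSP26, a small heat shock protein that holds unfolded proteins, had 14.96 at 42 °C and 9.28 at 25 °C, a difference of 5.68. ARG3, the ornithine carbamoyltransferase of arginine synthesis, had 12.33 at 42 °C and 7.24 at 25 °C, a difference of 5.09. These 3 loci were the furthest from equal levels. The next were SEO1, a putative transporter, with 10.37 at 42 °C and 6.25 at 25 °C, and BNA2, the tryptophan dioxygenase that opens the route to NAD, with 12.63 at 42 °C and 8.68 at 25 °C. GND2, a 6-phosphogluconate dehydrogenase, had 12.10 at 42 °C and 8.32 at 25 °C.

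Beyond these came the Hsp70 gene SSA4 with a difference of 3.78, the membrane stress protein gene HSP30 with 3.69, the argininosuccinate synthase gene ARG1 with 3.55 and the sulfate permease gene SUL1 with 3.53. HSP12, a membrane-associated stress protein, differed by 3.41, and ARG56, which encodes 2 enzymes of the ornithine branch, by 3.30. GPG1, whose product binds a G protein of glucose sensing, differed by 3.26. SIP4, an activator of gluconeogenic genes, differed by 3.24 and MET2, the homoserine acetyltransferase, by 3.16. Of the 15 highest, 4 were chaperone or membrane stress protein genes, 4 belonged to the sulfate and methionine list and 3 to the arginine list.

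The lower end held mating, nutrient uptake and cell surface genes. MF(ALPHA)2, the minor alpha-factor gene, had a log2 level of 10.51 at 42 °C against 13.76 at 25 °C, a difference of -3.25. HO, the endonuclease of mating type switching, had 9.40 at 42 °C and 11.70 at 25 °C, a difference of -2.30. CIS1 had 7.59 at 42 °C and 9.89 at 25 °C, a difference of -2.30, and HXT1, a low-affinity glucose transporter, had 10.79 at 42 °C and 13.05 at 25 °C, a difference of -2.26. SAG1, the alpha-agglutinin of mating cells, had 11.71 at 42 °C and 13.80 at 25 °C, a difference of -2.09. After MF(ALPHA)2 the lower differences were much smaller than the upper ones.

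The remaining 10 of the 15 lowest lay between -1.75 and -1.58. They included SNL1, an ER-anchored Hsp70 partner, with -1.75, the glutathione peroxidase gene GPX2 with -1.75 and the methylglyoxal reductase gene GRE2 with -1.73. The multicopper ferroxidase gene FET3 differed by -1.67, the lumazine synthase gene RIB4 of riboflavin synthesis by -1.63 and the cell wall mannoprotein gene CWP1 by -1.62.

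**Figure D2:**
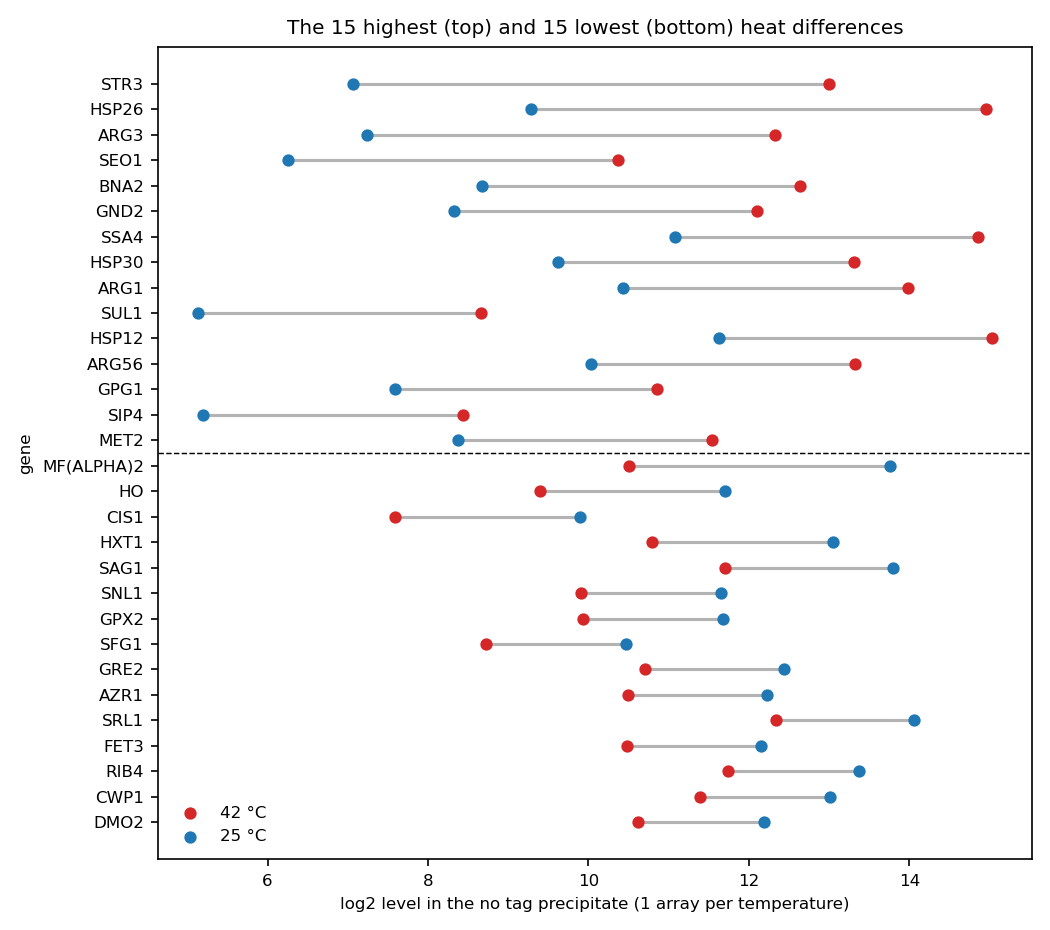
Log2 level at 42 °C (red) and at 25 °C (blue) in the no tag precipitate for the 15 highest and the 15 lowest heat differences, 1 array per temperature. The gap is widest for STR3, at 13.00 against 7.07, and the widest gap in the other direction is that of MF(ALPHA)2, at 10.51 against 13.76.

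The list of genes named as heat shock proteins outside the large families held the small heat shock proteins HSP26 and HSP42, the disaggregase HSP104, the membrane stress proteins HSP12 and HSP30, and HSP31 and HSP150. Of these 7, 6 were at least 2-fold higher, 0 were lower, and the median difference, which is that of HSP31, was 2.40, beside 0.01 over all loci. HSP31, a chaperone with glyoxalase activity, had a log2 level of 13.66 at 42 °C and 11.26 at 25 °C. HSP42, the second small heat shock protein of the cytosol, had 14.74 at 42 °C and 12.96 at 25 °C. HSP104, which pulls proteins out of aggregates, had 14.30 at 42 °C and 12.75 at 25 °C, a difference of 1.55. HSP150, a secreted cell wall protein, was the member below 2-fold, with a difference of 0.85.

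The Hsp70 list was split by type of member, and 6 of its 24 genes passed 2-fold upwards and 2 downwards, with a median of 0.36. SSA4 had 14.85 at 42 °C and 11.07 at 25 °C, and SSA3, another stress-induced cytosolic Hsp70, had 13.74 at 42 °C and 11.10 at 25 °C. SSA1 had 14.89 at 42 °C and 13.67 at 25 °C. The J-protein SIS1 differed by 1.10, the Hsp110 gene SSE2 by 1.17 and BTN2, a sorting factor for aggregates, by 1.52. The chaperones of the ribosome lay on the other side. ZUO1, the J-protein at the ribosome's exit, had 12.87 at 42 °C and 13.88 at 25 °C. Its difference was -1.01, or -0.95 when centred on the S. pombe median. SSZ1 lay at -0.55, SSB2 at -0.53 and SSB1 closer to equal levels at -0.13. The other member counted as lower was the ER-anchored SNL1, at -1.75.

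Of 14 Hsp90 genes and co-chaperones 4 passed 2-fold upwards and 0 downwards, and the median was 0.35. HSP82 had 14.74 at 42 °C and 13.01 at 25 °C, a difference of 1.73, whereas its near-identical paralogue HSC82 had 14.62 at 42 °C and 14.15 at 25 °C, a difference of 0.47. The probe sets could share signal between such close copies. The cyclophilin CPR6 and the ATPase activator AHA1 each differed by 1.88, and HCH1, a relative of AHA1, by 1.06. The cyclophilin CPR7 lay at -0.74.

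In mitochondria the disaggregase HSP78 had 13.63 at 42 °C and 10.80 at 25 °C, a difference of 2.83, and it was the single member of 13 past 2-fold. The chaperonin HSP60 differed by 0.88 and the nucleotide exchange factor MGE1 by -0.52. In the ER list 1 of 19 was past 2-fold, the exchange factor SIL1, which lay at the threshold with 1.00, and the ER Hsp70 KAR2 differed by 0.52. With 7.69% of the mitochondrial and 5.26% of the ER list counted as higher, both lay near the 6.69% of all loci tested.

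In the list of stress transcription factors 2 of 19 (10.5%) passed 2-fold upwards, beside 6.69% of all loci, and 0 downwards, and the median was 0.28, or 0.16 once the trend with coding length described below was removed. HSF1 had a log2 level of 11.60 at 42 °C and 10.46 at 25 °C, a difference of 1.14, and RLM1, a factor of the cell wall pathway, differed by 1.10. With the trend with coding length removed both fell short of 2-fold, at 0.99 for HSF1 and 0.98 for RLM1. MSN2 had 11.37 at 42 °C and 11.61 at 25 °C, a difference of -0.24, and MSN4 had 10.48 at 42 °C and 10.20 at 25 °C, a difference of 0.28.

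The general stress list, which holds genes of unlike function, had 16 of 43 genes counted as higher, 2 as lower and a median of 0.76. YRO2, a membrane protein related to HSP30, had 13.56 at 42 °C and 10.43 at 25 °C, a difference of 3.13. GRE1, a hydrophilin, differed by 2.55, the aldehyde dehydrogenase gene ALD3 by 2.48 and DDR2, a small stress protein, by 2.39. In trehalose and glycogen metabolism 7 of 21 were higher and 1 lower, with a median of 0.58. TSL1, a regulatory subunit of trehalose synthase, had 13.77 at 42 °C and 11.31 at 25 °C, and GAC1, which targets a phosphatase to glycogen synthase, had 10.81 at 42 °C and 8.49 at 25 °C. The catalytic subunits differed less, with 0.44 for TPS1 and 0.58 for TPS2. Enzymes of breakdown also passed 2-fold, namely the trehalases NTH1 with 1.14, NTH2 with 1.23 and ATH1 with 1.32, and the glycogen phosphorylase GPH1 with 1.31.

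Oxidative stress defence had no common direction, with 5 of 32 higher, 2 lower and a median of -0.10. TSA2, a peroxiredoxin, had 11.21 at 42 °C and 8.75 at 25 °C, a difference of 2.46, and the cytosolic catalase CTT1 had 11.13 at 42 °C and 10.08 at 25 °C, a difference of 1.05, or 0.95 with the trend with coding length removed. The thioredoxin TRX1 had 11.32 at 42 °C and 12.73 at 25 °C, a difference of -1.41. The pentose phosphate list, which supplies NADPH, had 6 of 22 higher and 1 lower, with a median of -0.00.

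**Figure D3:**
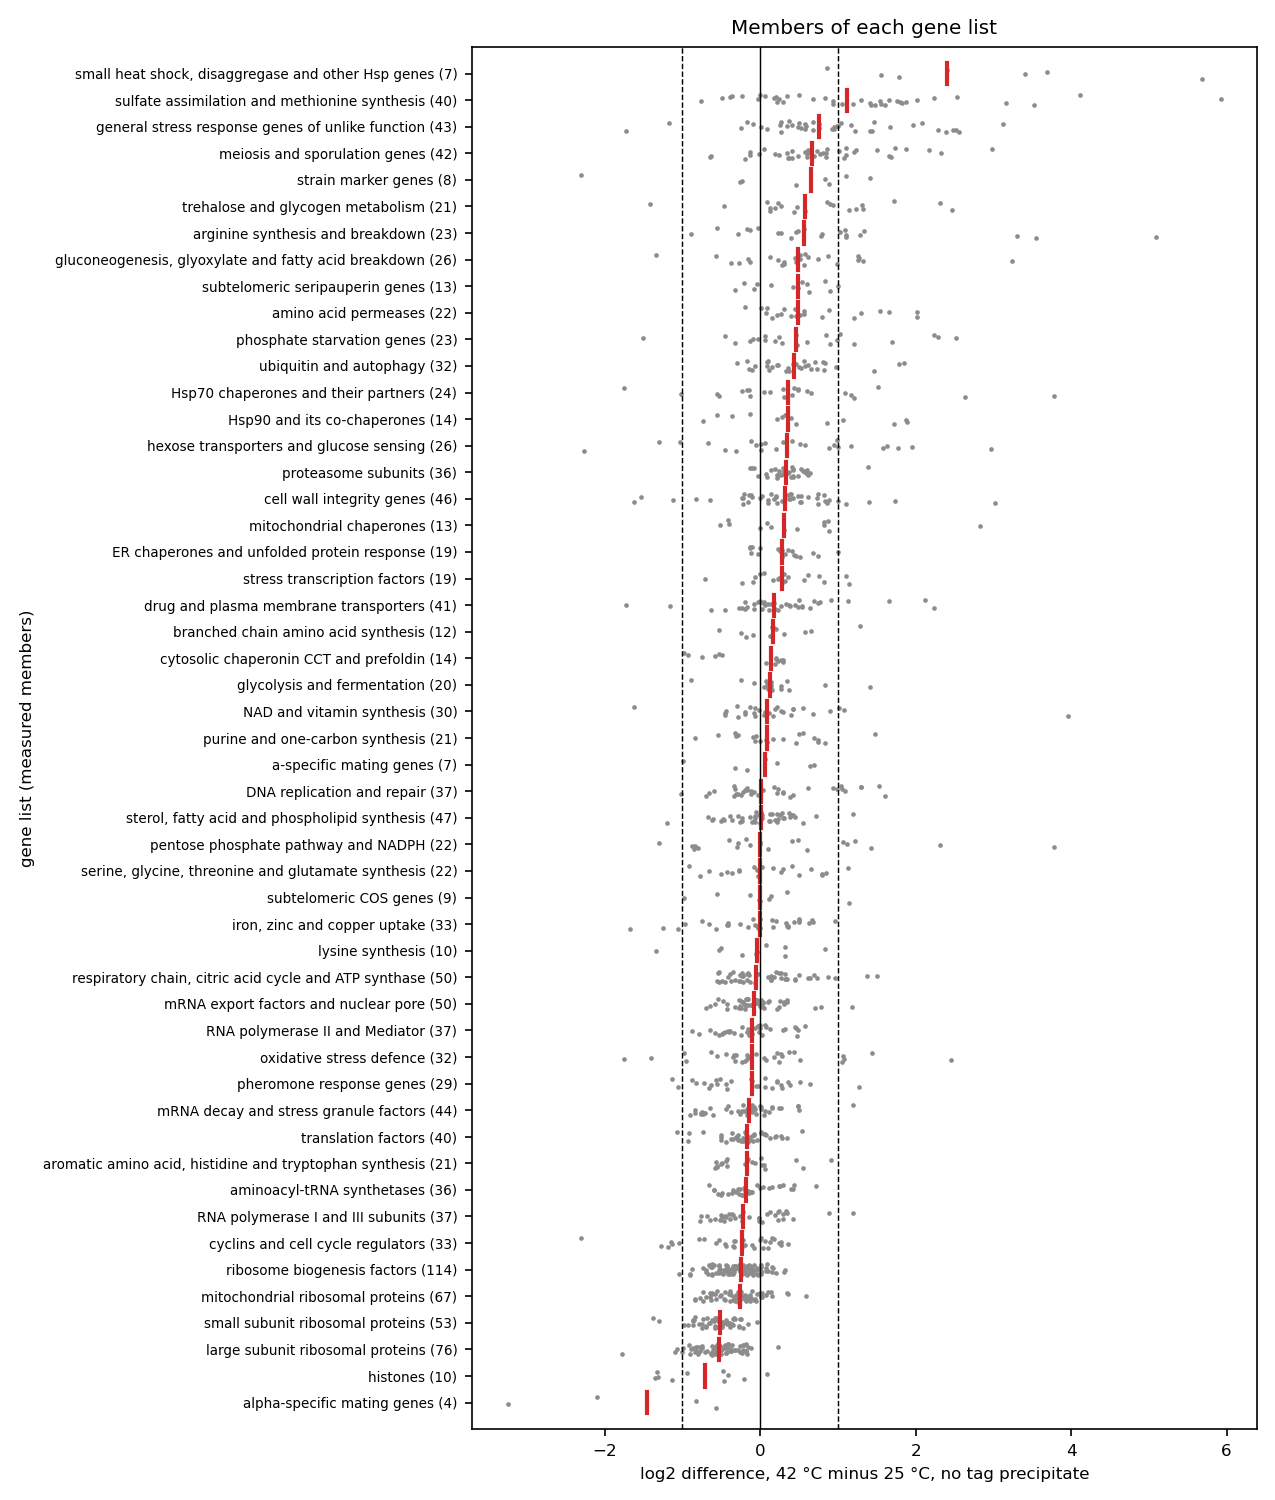
Log2 difference between 42 °C and 25 °C in the no tag precipitate for the members of each gene list, 1 grey point per gene, with the list's median as a red bar and dashed lines at 2-fold. The medians run from 2.40 for the 7 small heat shock, disaggregase and other Hsp genes at the top to -1.46 for the 4 alpha-specific mating genes at the bottom.

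Isozyme pairs showed a contrast within the same enzyme activity. For 24 pairs, chosen after the values were seen, the member taken as the inducible form was set against a partner of the same activity. The inducible form was at least 2-fold higher in 15 pairs, and the partner was so in 0 pairs and at least 2-fold lower in 5. The inducible form's difference was above its partner's in 23 of the 24. The median was 1.14 for inducible forms and -0.13 for partners. GND2 differed by 3.78 and its partner GND1 by -0.30. The transketolase TKL2 differed by 2.31 and TKL1 by -0.13. The glyceraldehyde-3-phosphate dehydrogenase TDH1 had 14.72 at 42 °C and 13.31 at 25 °C, whereas TDH3 had 15.43 at 42 °C and 15.38 at 25 °C. The phosphoglucomutase PGM2 differed by 0.90 and PGM1 by -1.41. The cytochrome oxidase pair COX5B and COX5A lay at -0.22 and -0.45, and TRX2 at -0.15 against TRX1 at -1.41. Because the pairs were picked with knowledge of the values, the counts describe them and support nothing further.

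Differences in protein turnover genes were small. Of the 36 proteasome subunits 32 lay above 0, with a median of 0.34, yet 1 was past 2-fold. That was ECM29, a proteasome-binding protein, with 12.83 at 42 °C and 11.45 at 25 °C. In the ubiquitin and autophagy list 3 of 32 (9.38%) passed 2-fold upwards, beside 6.69% of all loci. The polyubiquitin gene UBI4, also in the general stress list, had 13.87 at 42 °C and 12.41 at 25 °C. The autophagy kinase ATG1 had a difference of 1.85. The remaining one was HSP42 at 1.78, which also belongs to the list of heat shock proteins.

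Sulfate assimilation and methionine synthesis, the route by which sulfate is reduced and built into methionine, had the most counted members of any list: 21 of 40 passed 2-fold upwards, 0 downwards, and the median was 1.12. MET32, a zinc finger activator of these genes, had 10.87 at 42 °C and 8.34 at 25 °C, a difference of 2.53. MET6, the methionine synthase, had 14.17 at 42 °C and 12.30 at 25 °C, a difference of 1.88. MET17, the sulfhydrylase, had 13.26 at 42 °C and 11.85 at 25 °C, a difference of 1.41. The lowest members were SAM4, a homocysteine methyltransferase, at -0.76, MET31, the relative of MET32, at -0.49 and CBF1, the helix-loop-helix factor of the pathway, at -0.39.

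Arginine metabolism followed with 9 of 23 genes counted as higher, 0 as lower and a median of 0.56. ARG1 had a log2 level of 13.98 at 42 °C and 10.43 at 25 °C, and ARG56 had 13.33 at 42 °C and 10.03 at 25 °C. CPA1, a subunit of carbamoyl phosphate synthetase, differed by 1.29, the acetylornithine aminotransferase ARG8 by 1.10 and the argininosuccinate lyase ARG4 by 1.10. The arginase CAR1, which breaks arginine down, lay at -0.89. The other counted members were the permease ALP1, the proline oxidase PUT1, which acts in breakdown, and the kinase and regulator ARG82, so that 6 of the 9 were enzymes of synthesis. ALP1 differed by 1.34, but by 0.74 under quantile normalization and 0.89 with the trend with level removed.

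In the other amino acid routes the counts were near or below the share of all loci counted as higher, 6.69%, in lists too short to read more from. Lysine synthesis had 0 of 10 higher and 1 lower, LYS9, a saccharopine dehydrogenase, with 11.63 at 42 °C and 12.96 at 25 °C. Aromatic amino acid, histidine and tryptophan synthesis had 0 of 21 in either direction, branched chain synthesis 1 of 12 (8.33%) higher, and the serine, glycine, threonine and glutamate list 1 of 22 (4.55%) higher. Of 22 amino acid permeases 6 were counted as higher and 21 lay above 0. Of these 6, MMP1, MUP1, MUP3 and SAM3 also belong to the sulfate and methionine list, which leaves AGP1 and AGP3. AGP3 had 10.13 at 42 °C and 8.12 at 25 °C, and the methionine permeases MUP1 and MUP3 differed by 1.66 and 2.01.

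Genes of carbon use went both ways. HXT5, a hexose transporter of slow-growing cells, had 10.14 at 42 °C and 7.17 at 25 °C, a difference of 2.97, in contrast to HXT1 at -2.26. HXT3 had 14.71 at 42 °C and 14.70 at 25 °C. The glucose repressors MIG3 and MIG2 lay at -1.30 and -1.02, and CAT8, an activator of gluconeogenesis, at 1.32, or at 0.90 under quantile normalization and 0.98 with the trend with level removed. MIG2 fell short of 2-fold when centred on the S. pombe median, at -0.96. The hexose transport and glucose sensing list as a whole had 7 of 26 (26.9%) higher and 3 (11.5%) lower, beside 6.69% and 2.07% of all loci. Of the higher ones, HXT10 differed by 1.58 and HXT14 by 1.63. Under quantile normalization they lay at 0.75 and 0.78, and with the trend with level removed at 0.98 and 0.96, short of 2-fold. In respiration 2 of 50 (4%) were at least 2-fold higher, beside 6.69% of all loci. These were both subunits of one enzyme, the NAD-dependent isocitrate dehydrogenase. IDH1 had 13.89 at 42 °C and 12.52 at 25 °C, and IDH2 had 13.93 at 42 °C and 12.42 at 25 °C.

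Phosphate genes were counted more upwards than downwards, as were all loci, and the metal list had no direction. Of 23 phosphate starvation genes 6 (26.1%) passed 2-fold upwards and 1 (4.35%) downwards, beside 6.69% and 2.07% of all loci. Among the higher ones, the phosphate permease PHO84 had 13.44 at 42 °C and 11.75 at 25 °C. The highest was PHM7 at 2.52, which also belongs to the general stress list. Of 33 genes of iron, zinc and copper uptake 16 lay above 0 and 17 below, with a median of -0.0045. Past 2-fold, 0 were higher and 3 (9.09%) lower, beside 6.69% and 2.07% of all loci. The 3 were all of the high-affinity iron system: FET3, the reductase FRE1 at -1.25 and the permease FTR1 at -1.05, or -0.99 when centred on the S. pombe median.

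Nearly all ribosomal protein genes lay below 0, most by less than 2-fold. Of 129 cytosolic ribosomal protein genes 128 lay below 0, but 6 (4.65%) were at least 2-fold lower, beside 2.07% of all loci. For the large subunit the median was -0.53, with 4 of 76 (5.26%) counted as lower. For the small subunit it was -0.52, with 2 of 53 (3.77%) counted. RPS28A had a log2 level of 11.81 at 42 °C and 13.19 at 25 °C, a difference of -1.38, and RPS22B differed by -1.31. RPL15B was the exception above 0, at 0.23. Many of these genes are duplicated, and where the copies are close the probe sets may not tell them apart.

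Ribosome assembly factors showed the same with a smaller size, with 97 of 114 below 0, 1 counted as lower and a median of -0.25. In the 67 mitochondrial ribosomal proteins 0 passed 2-fold and the median was -0.26, which became -0.09 once a trend with coding length was removed. Translation factors had a median of -0.17 with 12 of 40 above 0, and aminoacyl-tRNA synthetases a median of -0.18 with 10 of 36 above 0. In the list of mRNA export factors and the nuclear pore 1 of 50 was past 2-fold, and MEX67 and NPL3 themselves differed by -0.19 and 0.22. ACT1, actin, had 14.72 at 42 °C and 14.71 at 25 °C.

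The median difference varied with coding length, taken as the length of each gene in the reference annotation. This length was a multiple of 3 for 97.0% of loci, so for some loci it is not that of the coding sequence alone. Loci were put in 5 bins of near-equal size. In the bin with the shortest lengths, up to 656 bp, the median difference was -0.20, 4.59% were at least 2-fold lower and 7.73% at least 2-fold higher. In the bin from 2106 bp upwards the median was 0.16, 0.443% were lower and 4.61% higher. Of the shortest and the longest bin, the shortest thus had the larger share past 2-fold in both directions. More of its loci passed upwards than downwards. The largest share of higher loci among all bins was 8.43%, in the bin from 1464 to 2103 bp. Across 5646 loci the Spearman correlation of the difference with coding length was 0.24, a description across genes, which are not independent replicates. Complexes with short genes did not all lie on the same side, and those given here were picked after their values were seen, so they support nothing about the trend. All 7 LSM genes from LSM1 to LSM7, whose products form rings on RNA ends, lay below 0 with a median of -0.74, or -0.51 with the trend removed. All 6 prefoldin subunits lay below 0 with a median of -0.67, or -0.47 with the trend removed. The 8 subunits of the chaperonin CCT, which receives substrates from prefoldin and has longer genes, all lay above 0, between 0.08 and 0.29. The proteasome core particle also has short genes, with a median coding length of 764.5 bp, yet 13 of its 14 subunits lay above 0 with a median of 0.28. The same removal took the ribosomal protein median to -0.39 and the histone median to -0.49. Where the annotated length is not that of the coding sequence alone, the trend removed may be of the wrong size. The gap between 3' and 5' probe sets of ACT1, a sign of RNA length, was 0.49 at 42 °C and 0.47 at 25 °C. That of SRB4 was 2.34 at 42 °C and 2.12 at 25 °C, and that of SPT15 was 1.34 at 42 °C and 1.40 at 25 °C. The part of RNA length in the trend was not tested.

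**Figure D4:**
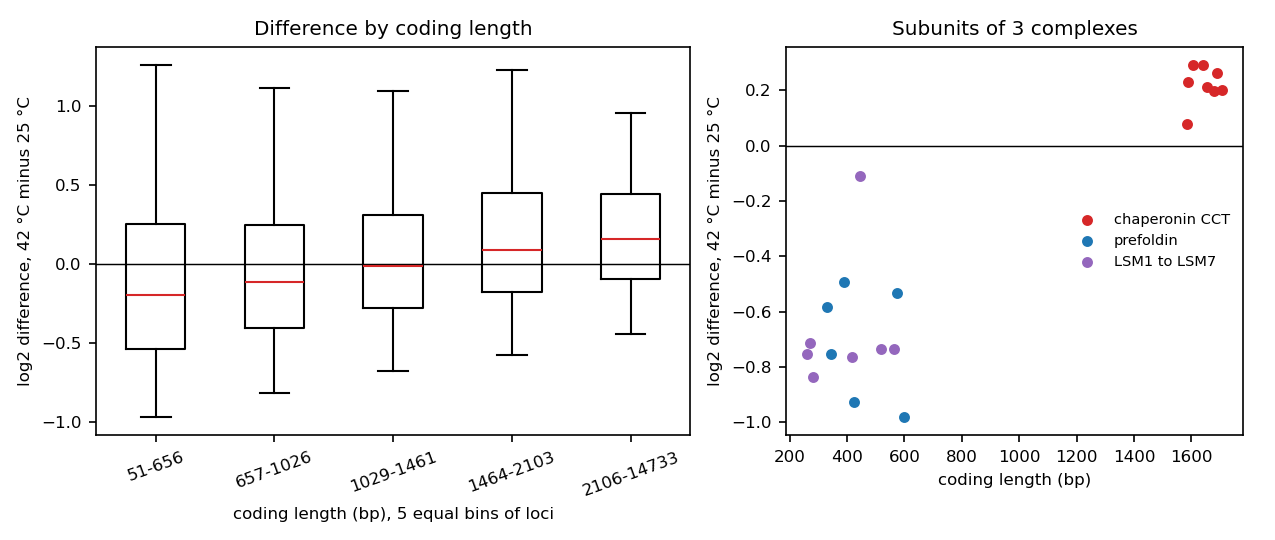
Left, log2 difference between 42 °C and 25 °C in 5 bins of coding length, as boxes of the middle 50% of loci with the median in red and whiskers from the 5th to the 95th percentile; right, subunits of 3 complexes by coding length. Medians go from -0.20 in the shortest to 0.16 in the longest bin, and the short prefoldin and LSM genes lie below 0 while the longer CCT genes lie above.

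The share of counted loci also varied with the signal level. In the lowest of 5 bins of mean level 16.3% were at least 2-fold higher and 1.44% lower, and the median difference was 0.22, while in the other bins between 3.44% and 5.56% were higher. Meiosis and sporulation genes, which growing cells keep off, had 14 of 42 higher, 0 lower and a median of 0.67, but 0.31 once the trend with level was removed. SMA1, a spore membrane gene, had 9.26 at 42 °C and 6.29 at 25 °C, and SPS100, a spore wall gene, had 9.85 at 42 °C and 7.52 at 25 °C.

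Histone and cell cycle genes past 2-fold were lower in the lists examined. Of 10 histone genes 0 were higher and 4 were lower by 2-fold or more, and the median was -0.71. For the core histones H2A, H2B, H3 and H4 3 of 7 were lower, with a median of -0.46. With the trend with coding length removed, the median was -0.49 for the list and -0.22 for the core histones. HTB2, a histone H2B gene, had 11.57 at 42 °C and 12.92 at 25 °C, and the linker histone HHO1 differed by -1.33. The core histones come in near-identical pairs whose signals may mix. Of 33 cyclins and cell cycle regulators 6 were lower and 0 higher: HO, the S-phase cyclin CLB6 at -1.28, the mitotic cyclin CLB2 at -1.19, the forkhead factor FKH1 at -1.14, the cyclin inhibitor FAR1 at -1.14 and SWI5, an activator of genes at the end of mitosis, at -1.04.

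Of 4 alpha-specific mating genes 2 were at least 2-fold lower, and all 4 lay below 0. Besides MF(ALPHA)2 and SAG1, MF(ALPHA)1 differed by -0.57 and STE3, the a-factor receptor, had 12.59 at 42 °C and 13.41 at 25 °C, a difference of -0.82. The 7 a-specific genes had a median of 0.06 with 0 past 2-fold in either direction, and STE2 differed by 0.64. The precipitates are bulk samples, so fewer alpha cells and less of these RNAs per alpha cell cannot be told apart.

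Cell surface genes went both ways. In the cell wall list 5 of 46 (10.9%) were higher and 3 (6.52%) lower, beside 6.69% and 2.07% of all loci. PIR3, a cell wall protein, had 12.17 at 42 °C and 9.16 at 25 °C, and GSC2, the stress form of glucan synthase, had 14.13 at 42 °C and 12.39 at 25 °C. The cold-shock mannoprotein TIR1 lay at -1.54 and CWP1 at -1.62. Among transporters of the plasma membrane 4 of 41 (9.76%) were higher and 2 (4.88%) lower, beside the same shares of all loci. The higher ones included the polyamine exporter TPO2 at 2.23. Among the lower ones was AZR1, an azole resistance transporter, with 10.50 at 42 °C and 12.22 at 25 °C.

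The tagged pairs show how far the mock resembled a precipitate with a bait. They were hybridised to other arrays, so the pairs share no array. In the Mex67 pair 869 of 5650 loci (15.4%) were at least 2-fold higher at 42 °C and 689 (12.2%) lower, and in the Npl3 pair 119 of 5634 (2.11%) were higher and 78 (1.38%) lower. Of the 378 loci higher in the no tag pair, 322 were also higher in the Mex67 pair, which is 85.2% of the no tag loci and 37.1% of the Mex67 loci. For Npl3 the overlap was 83, which is 22.0% of the no tag loci and 69.7% of the Npl3 loci. Of the 117 lower loci, 84 were shared with Mex67, or 71.8% and 12.2% of each list, and 22 with Npl3, or 18.8% and 28.2%. At the 2-fold threshold 45 loci were higher in the no tag pair alone, and 27 were lower in that pair alone. In all 3 pairs 72 were higher and 16 lower. By sign, 373 of the 378 higher loci (98.7%) were also above 0 in the Mex67 pair and 334 (88.4%) in the Npl3 pair. Of the 117 lower loci, 110 (94.0%) were below 0 in the Mex67 pair and 103 (88.0%) in the Npl3 pair.

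Some groups separated the pairs. For the 7 small heat shock, disaggregase and other Hsp genes the median was 2.40 in the no tag pair, 2.42 in the Mex67 pair and 1.90 in the Npl3 pair. The sulfate and methionine median was 1.12 in the no tag pair, 1.45 in the Mex67 pair and -0.09 in the Npl3 pair, where 0 of 40 were higher and 3 lower. The arginine median was 0.56 in the no tag pair, 0.53 in the Mex67 pair and -0.18 in the Npl3 pair. The ribosomal proteins differed in size, with 6 of 129 counted as lower in the no tag pair and 123 of 129 in the Mex67 pair, where the median was -2.29. In the Npl3 pair the median was -0.23. Alpha-specific genes were all below 0 in the no tag pair and all above 0 in the Mex67 pair, and their Npl3 median was -0.41. In the Mex67 pair MF(ALPHA)2 had 6.99 at 42 °C and 6.58 at 25 °C, and STE3 had 7.90 at 42 °C and 6.53 at 25 °C. These and MF(ALPHA)1 were dim there, so their differences in that pair are between low signals. SAG1 was brighter, with 10.93 at 42 °C and 10.04 at 25 °C. With 1 array per group and a different strain in each pair, none of these contrasts was tested.

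**Figure D5:**
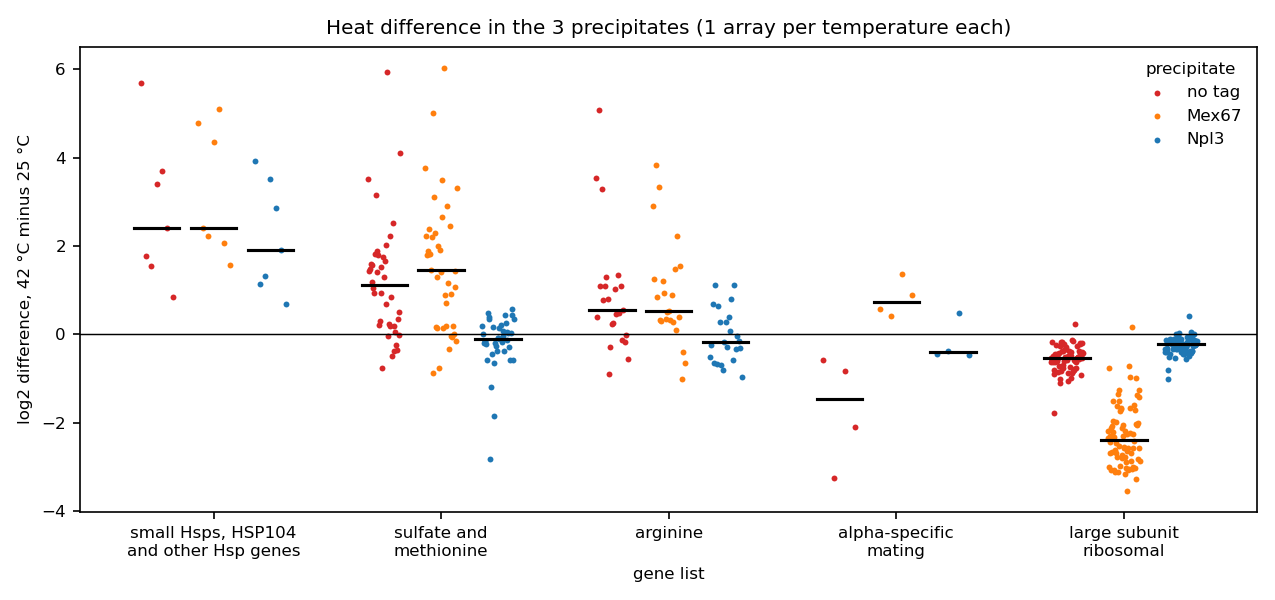
Log2 difference between 42 °C and 25 °C for the members of 5 gene lists in the no tag, Mex67 and Npl3 precipitates, 1 point per gene and a black bar at the median, with 1 array per temperature in each. The 7 small heat shock, disaggregase and other Hsp genes are above 0 in all 3 precipitates, the sulfate and methionine median is 1.12 in the no tag pair and -0.09 in the Npl3 pair, and the large subunit ribosomal proteins lie lowest in the Mex67 pair.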

How the data were processed

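RNA from 6 precipitates was measured on 1 Affymetrix yeast array each. The table the authors deposited holds log2 values, 1 for each probe set in each precipitate. The submitters' processing notes name the R package affy. Its version, summary and normalization were not given in the sources used. The labels' protocols name both a 3' labelling kit and a whole-transcript manual, so which was used is unclear. Of 5716 S. cerevisiae probe sets, those of the same locus were averaged to 5667 loci, of which 5646 were named through the RefSeq table of assembly R64. The 87 loci covered only by probe sets of several transcripts were counted but not named. Differences were taken as 42 °C minus 25 °C with pandas 2.3.3 and numpy 2.4.6, and the trends with coding length and level were fitted with statsmodels 0.14.6. The calculation was tested on simulated data with the noise of the S. pombe probe sets. That checks the computation and says nothing about the noise between precipitations. The members, gene lists and alternatives were chosen with earlier results of these data known. Named genes were the 15 highest and 15 lowest with a probe set of 1 transcript, any member of lists of up to 14, the 5 highest and 5 lowest of longer lists, and fixed heat shock and control genes. The isozyme partners, the subunits of the LSM and prefoldin complexes, GCN4 and the glycine cleavage and neighbouring genes were chosen after their values were seen. Alternatives were other centrings, quantile normalization, other floors, unique probe sets and removed trends. Promoter motifs were planned and not analysed here.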

Additional observations from a re-analysis of the deposited data

Results flagged for a closer look

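The 6 genes given here were at least 2-fold different between 42 °C and 25 °C in opposite directions in the no tag pair and in the Npl3 pair. Each pair has 1 array per temperature, and the difference between the pairs was not tested. In sulfur metabolism MET6, the methionine synthase, differed by 1.88 in the no tag pair and by -1.20 in the Npl3 pair. MET17, the sulfhydrylase, differed by 1.41 in the no tag pair and by -2.81 in the Npl3 pair. MXR1, a methionine sulfoxide reductase, differed by 1.44 in the no tag pair and by -1.01 in the Npl3 pair. PRM2, a gene of the pheromone response, had 7.97 at 42 °C and 6.70 at 25 °C without a tag, a difference of 1.27, and differed by -2.44 with Npl3. The no tag difference of PRM2 was 0.64 under quantile normalization and 0.81 with the trend with level removed, both short of 2-fold. IME4, the mRNA methyltransferase of meiosis, had 7.63 at 42 °C and 6.56 at 25 °C without a tag, a difference of 1.07, and differed by -2.98 with Npl3. PHM6, a gene induced by low phosphate, had 7.93 at 42 °C and 9.44 at 25 °C without a tag, a difference of -1.51, and differed by 1.05 with Npl3. The strains differ between the pairs as well.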

How the results depend on the processing

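Under the 8 alternatives run, the 2 counts of loci past 2-fold stayed within 1.5 times their reported values. Of the list medians in 51 lists, 401 values moved by less than the SD of the S. pombe differences (0.236), and 7 moved further. The sign of the median changed in 22 of these values, over 11 lists. In 21 the reported median was within 0.2 of 0, as for the a-specific genes (0.06, and -0.34 under quantile normalization or -0.21 with the trend with level removed), DNA replication and repair, and plasma membrane transporters (0.17, and -0.020 with the trend with length removed). The other was that of the seripauperin genes, 0.49, and -0.072 when only probe sets of 1 transcript were kept. Of 3032 values for 509 named genes, 130 moved by more than that SD and 0 changed direction while past 2-fold. Of 156 named genes past 2-fold, quantile normalization took 13 below it, removing the trend with length 14, HSF1, RLM1, CTT1 and HTA2 among them, and removing the trend with level 13. ALP1, CAT8 and PRM2 fell below 2-fold under both quantile normalization and removal of the trend with level. Centring on the S. pombe median took 7 below 2-fold, ZUO1 and FTR1 among them, and centring on the S. cerevisiae median took 3, SIL1 among them. No paired analysis was possible because each group has 1 array and no replicate numbers. Strain, array and precipitation were not separated from temperature by any alternative.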

Other observations

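Some genes of DNA repair were higher at 42 °C, in cells that were UV crosslinked at both temperatures. Of 37 genes of DNA replication and repair 7 (18.9%) passed 2-fold upwards and 1 (2.70%) downwards, beside 6.69% and 2.07% of all loci. The median was 0.01, or -0.17 once the trend with coding length was removed. RNR3, the damage-induced ribonucleotide reductase subunit, had a log2 level of 11.79 at 42 °C and 10.18 at 25 °C. RAD16 and RAD2, both of nucleotide excision repair, differed by 1.53 and 1.29, and the glycosylase MAG1 by 1.29. POL30, the replication clamp, lay at -1.01, or -0.95 when centred on the S. pombe median, and CDC45, a replication fork protein, at 1.09, or 0.97 with the trend with length removed. In the glycine cleavage system GCV1 had 13.44 at 42 °C and 11.07 at 25 °C, and GCV2 had 13.54 at 42 °C and 11.18 at 25 °C, while GCV3 differed by 0.46. GCN4, the activator of amino acid synthesis whose protein level is set at translation, had 14.38 at 42 °C and 14.11 at 25 °C.

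Some of the higher genes lay side by side. Of 699 measured neighbours of the at least 2-fold higher genes, in the order of the reference annotation, 100 (14.3%) were higher, beside 6.69% of all loci tested. The share was 19.9% for divergent neighbours that share an upstream region and 9.20% for convergent neighbours. It was 15.3% for a neighbour upstream in tandem and 12.8% for one downstream in tandem. Each pair of adjacent higher genes was counted from both sides, so the 100 are not separate pairs. The upstream and downstream tandem shares rest on the same higher pairs. They differ only through the number of measured neighbours. SIP4 lies directly before ARG3 on the same strand, with differences of 3.24 and 5.09. LST8, a subunit of the TOR complexes, had 14.41 at 42 °C and 11.28 at 25 °C, a difference of 3.13, and its divergent neighbour SIS1 differed by 1.10. FMP45 and HBT1, in tandem, differed by 2.08 and 1.64. Neighbours were not tested against other loci, and signal from overlapping transcripts was not separated.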
